A study of Zea mays with 18 samples.

Results

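The stage course of stem gene expression in the tallest of 3 maize (Zea mays) hybrids is described here. Its members are the 6 libraries labelled as high hybrid, of 18 in the series, and they were chosen by label, not by any measured value. The high hybrid is the cross Dan 598 x ES40. Its stem was taken at jointing, when the internodes begin to lengthen, at big flare, when the upper leaves still wrap the tassel in a whorl, and at tasseling, when the tassel shows, with 2 libraries per stage. The other 12 libraries come from the middle hybrid (Dan 598 x CML444) and the low hybrid (Dan 598 x FAPW) at the same stages. No treatment or engineered allele is labelled, Dan 598 is a parent of all 3 hybrids, and each height class is a single cross, so height and genotype cannot be told apart. The labels do not tell whether the 2 libraries of a stage are different plants, and p-values therefore reflect library-to-library spread, which may be technical. The position of the sampled internode along the stem is not given in the sources used here.

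A maize internode grows from a meristematic zone at its base. Cells leave that zone, lengthen, and then lay down thick secondary walls of cellulose, xylan and lignin in the xylem and in the fibres of the rind, while sucrose from the leaves passes through the phloem and collects in the pith. KNOX homeobox genes are active in meristems, cellulose synthases, laccases and NAC and MYB factors in wall building, and benzoxazinoids are the grass defence compounds that are most abundant in young maize tissue.

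Levels are FPKM, fragments corrected for gene length and for library size, and changes are on the log2(FPKM + 1) scale with their SE. A gene was called when its adjusted p in limma was under 0.05. Of 34474 genes, 26792 with at least 1 FPKM in 2 or more of the 18 libraries were tested, and 23564 of these reached 1 FPKM in at least 2 high libraries. The 6 libraries had 20888 to 21840 genes at 1 FPKM or more. Their absolute depth is unknown, and the relative depth read from low values was 0.96 and 0.523 at jointing, 0.426 and 0.53 at big flare, then 0.963 and 0.996 at tasseling. Both big flare libraries were thus shallower than both tasseling libraries, and the part of depth in the changes between these stages was not tested.

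By correlation and on the first principal component, the big flare and tasseling libraries fell into close pairs, and the jointing libraries did not. The correlation across genes between the libraries of a stage was 0.901 at jointing, 0.941 at big flare and 0.938 at tasseling, and genes are not independent replicates. Jointing library 1 correlated best with big flare library 1 (0.91), and jointing library 2 with tasseling library 2 (0.905). The first principal component, with 56.2% of the variance, placed the jointing libraries at -47.1 and 27.0, the big flare libraries at -91.2 and -92.5 and the tasseling libraries at 112.2 and 91.6. The median absolute gap between the libraries of a stage was 0.4 log2 units at jointing, 0.33 at big flare and 0.43 at tasseling. By that measure the tasseling libraries were no closer than the jointing libraries. Large gaps were most frequent at jointing. Between the libraries of a stage, 1197 tested genes (4.47%) differed by at least 2 log2 units at jointing, 603 (2.25%) at big flare and 470 (1.75%) at tasseling. Comparisons with jointing are therefore given with and without each jointing library.

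**Figure D1:**
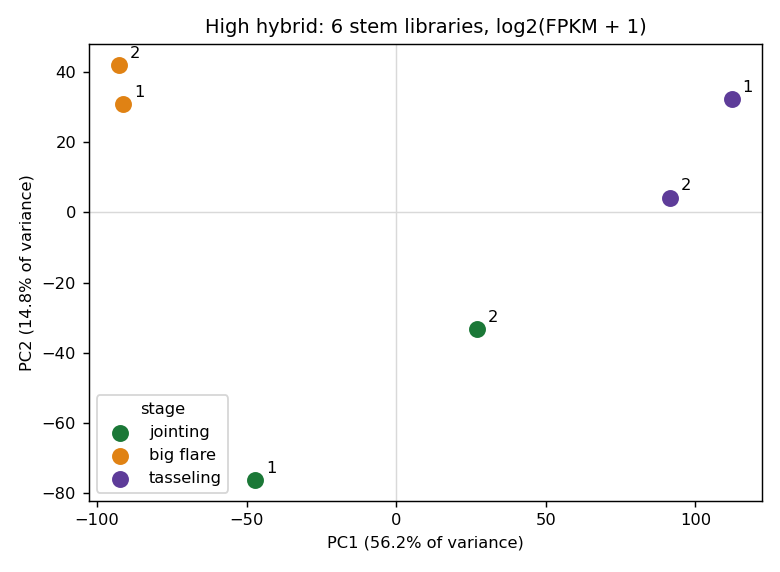
Principal components of log2(FPKM + 1) in the 6 stem libraries of the high hybrid; the axes give the share of variance, colours the stage and numbers the library. The big flare and tasseling libraries lie at opposite ends of the first axis, and the jointing libraries lie apart from each other at -47.1 and 27.0.

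Many more genes were called at tasseling against big flare than at big flare against jointing. Between big flare and jointing, 20 genes rose (0.0746% of those tested) and 15 fell (0.056%), together 0.131%, and 3670 (13.7%) had an unadjusted p under 0.05. The libraries of the 2 stages did not overlap in 43.9% of the tested genes. Without jointing library 1 the counts were 37 and 25, without jointing library 2 they were 15 and 55, without big flare library 1 they were 18 and 2, and without big flare library 2 they were 7 and 5. For 5 of these 35 genes the call held whichever of the 18 libraries was left out.

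At tasseling, 2510 genes were higher than at big flare (9.37%) and 2810 were lower (10.5%), together 19.9%. With median-of-ratios scaling 3309 were higher and 2589 lower, so which direction had more genes depended on the scaling. In 59.6% of the tested genes the libraries of the 2 stages did not overlap, and 34.7% had an unadjusted p under 0.05. The median change of the called genes was 1.78 log2 units upward and -1.55 downward, against a median of -0.04 over all tested genes. The counts were 1102 and 1520 without big flare library 1, 978 and 819 without big flare library 2, 1059 and 1701 without tasseling library 1, and 1990 and 1392 without tasseling library 2. Calls that held in all 18 fits with 1 library left out numbered 1229, of which 562 rose and 667 fell.

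Tasseling against jointing gave 471 higher genes (1.76%) and 545 lower genes (2.03%), and with median-of-ratios scaling 811 and 587. Together the 1016 genes were 3.79% of those tested, 20.4% had an unadjusted p under 0.05, and the libraries did not overlap in 45.7%. Without jointing library 1 the counts were 6 and 9, and without jointing library 2 they were 566 and 795. Without tasseling library 1 there were 27 and 84, and without tasseling library 2 there were 260 and 162. Of these calls, 11 held whichever library was left out.

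**Figure D2:**
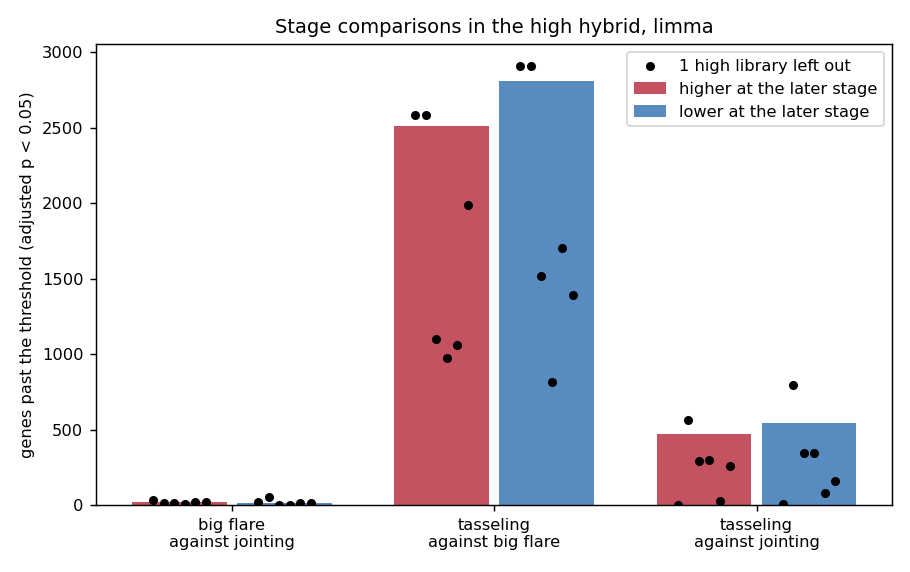
Number of genes past an adjusted p of 0.05 in limma for each pair of stages of the high hybrid, higher (left bar) and lower (right bar) at the later stage; each point is the count with 1 of the 6 high libraries left out. Tasseling against big flare has 2510 and 2810 genes, and its count is lower whenever a library of either stage is left out.

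Between big flare and jointing, no gene list had more than 1 member called. The smallest adjusted p values belonged to genes with no informative name, Zm00001d050233 and Zm00001d029185 (0.0012 each in limma), and several transcription factors were among the named genes that rose. A gene matched to the MYB-like factor ETC3 (Zm00001d044194), whose Arabidopsis namesake is a small MYB of epidermal cell patterning, had 9.26 and 2.28 FPKM at jointing, 408 and 299 at big flare, then 5.43 and 4.09 at tasseling. Both big flare libraries stood far above the other 4. It rose by 5.92 ± 0.91 log2 units at big flare (adjusted p = 0.025) and fell by 5.94 ± 0.91 at tasseling (0.002). These changes share the big flare libraries, as do all pairs of steps given here. The first call was lost without jointing library 2 (adjusted p = 0.1), big flare library 1 (0.15) or 2 (0.14), or low tasseling library 1 (0.052) or 2 (0.05), and the second in none of the 18 fits. In bulk tissue, fewer cells of a type and less RNA per cell cannot be told apart, here and in every result that follows.

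Other regulators had the same shape. A WRKY-domain gene (Zm00001d012746), of a family of plant transcription factors, stood at 4.09 and 2.88 FPKM at jointing, 28.4 and 27.9 at big flare, then 1.73 and 1.82 at tasseling. No big flare library overlapped with another stage, and the gene rose by 2.71 ± 0.40 log2 units (adjusted p = 0.021) and then fell by 3.39 ± 0.40 (0.00088). The rise was lost without jointing library 2 (0.084) or big flare library 1 (0.13) or 2 (0.14). ERF113 (Zm00001d031673), an ethylene response factor, was listed at 0 in both jointing libraries, at 3.54 and 10.6 FPKM at big flare, and at 0 in both tasseling libraries. Both of its steps were called (adjusted p = 0.013 and 0.0011), and neither call was lost with any library left out. The bZIP factor EMBP-1-like (Zm00001d005962) had 6.02 and 3.60 FPKM at jointing, 39.0 and 60.4 at big flare, then 5.47 and 9.76 at tasseling. Its rise of 3.12 ± 0.45 log2 units had an adjusted p of 0.021, and of 0.082 without jointing library 2, 0.069 without big flare library 1 and 0.15 without big flare library 2.

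An alliin lyase gene (Zm00001d043650), named for the onion enzyme that splits cysteine sulfoxides, had 17.0 and 10.7 FPKM at jointing, 48.0 and 62.2 at big flare, then 7.79 and 8.03 at tasseling. The 3 stages did not overlap. It rose by 1.94 ± 0.25 log2 units (adjusted p = 0.013, and 0.11 without big flare library 2) and then fell by 2.64 ± 0.25 (0.0004). The MADS-box gene m15 (Zm00001d034045) had 26.6 and 42.9 FPKM at jointing, 156 and 346 at big flare, then 118 and 102 at tasseling. Its tasseling libraries lay between those of the other stages. It rose by 2.75 ± 0.45 log2 units at big flare (adjusted p = 0.035), a call that 12 of the 18 fits with a library left out lost, most of all the fit without big flare library 2 (0.21), and its later change of -1.08 ± 0.45 was not called (0.11).

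Of the 15 genes that fell at big flare, 7 had an informative name. Myo-inositol phosphate synthase (Zm00001d048201), which makes inositol phosphate from glucose 6-phosphate, had 141 and 72.0 FPKM at jointing, 7.32 and 11.7 at big flare, then 28.2 and 16.9 at tasseling. Jointing stood above both later stages in every library. The gene fell by 3.31 ± 0.43 log2 units at big flare (adjusted p = 0.013), and without big flare library 1 the adjusted p was 0.096. A gene of the protease inhibitor and lipid transfer family (Zm00001d019100) had 109.7 and 77.1 FPKM at jointing, 18.8 and 28.4 at big flare, then 39.99 and 33.1 at tasseling. It fell by 1.95 ± 0.29 log2 units at big flare (0.021), and the call was lost without jointing library 1 (0.095) or big flare library 1 (0.15) or 2 (0.063). An AP2/EREBP factor (Zm00001d048208) had 8.97 and 3.88 FPKM at jointing, 0 and 0.44 at big flare and 0 in both tasseling libraries, and its fall of 2.54 ± 0.37 log2 units at big flare was called (adjusted p = 0.021). That call was lost without jointing library 1 (0.079), big flare library 1 (0.15) or 2 (0.077), with a pseudocount of 0.1 (0.088) and with a filter of 5 FPKM (0.067).

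**Figure D3:**
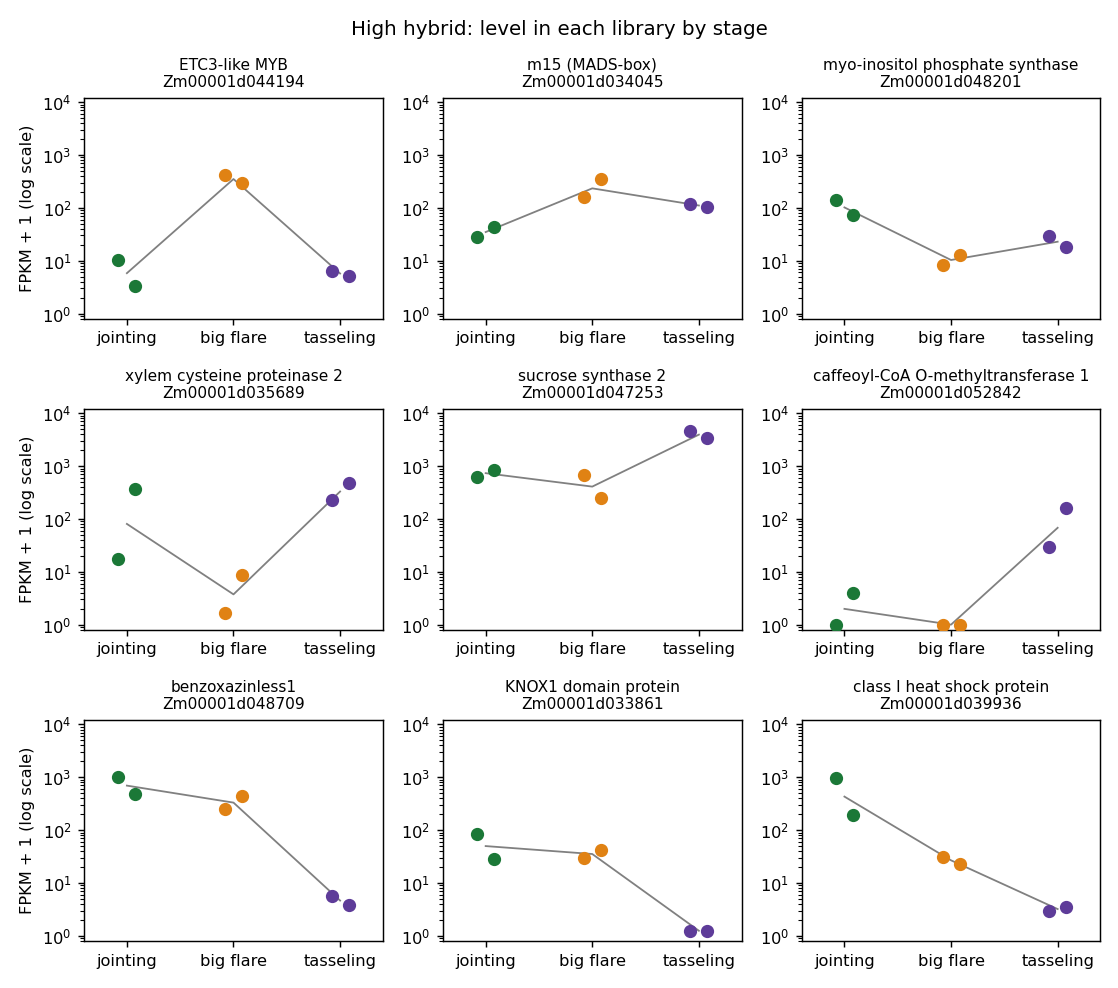
FPKM + 1, on a log axis, in each library of the high hybrid by stage for 9 genes; points are libraries, and the line joins the stage means of the log values. ETC3-like MYB is highest at big flare, sucrose synthase 2 is highest at tasseling, and benzoxazinless1 and the KNOX1 domain gene are lowest at tasseling.

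In the 36 gene lists, matched by protein name, 1 member rose between jointing and big flare (ERF113) and 1 fell. The MADS-box gene m15, which also rose, is in no list, since its matched protein name does not give its family. The gene that fell is a cortical cell-delineating protein gene (Zm00001d026162), a family of small proteins first known from the root cortex. It had 4.75 and 7.17 FPKM at jointing, 0 in both big flare libraries and 7.28 and 3.93 at tasseling, and its first step had an adjusted p of 0.034, which 10 of the 18 fits lost, with an adjusted p of up to 0.18 without big flare library 2. Median changes of several wall lists in that step were below 0 with no member called, among them xyloglucan endotransglucosylases (-1.61 over 9 tested members), expansins (-1.28 over 23) and cellulose synthases (-1.18 over 12), against 0.003 over all genes.

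Secondary wall genes were among those that rose at tasseling. In the list of xylem and secondary wall genes, 5 of 13 tested members rose and 1 fell, against 9.37% and 10.5% of all tested genes, and the median change was 1.98 log2 units. When any 1 high library was left out, 2 to 4 rose and 0 to 1 fell. Xylem cysteine proteinase 2 (Zm00001d035689), a protease that in Arabidopsis digests the contents of dying vessel cells, had 16.4 and 373 FPKM at jointing, 0.63 and 7.59 at big flare, then 230.3 and 471 at tasseling. The tasseling libraries stood above both big flare libraries, and jointing library 2 lay between the tasseling libraries while jointing library 1 did not. It rose by 6.46 ± 1.27 log2 units over big flare (adjusted p = 0.0057, and 0.05 without big flare library 1). A xylem cysteine proteinase 1-like gene (Zm00001d022036) went the other way, at 234.7 and 6.52 FPKM at jointing, 222 and 257 at big flare, then 10.9 and 0.83 at tasseling. It fell by 5.68 ± 1.84 log2 units (adjusted p = 0.047), and 12 of the 18 fits with a library left out lost the call, with the highest adjusted p of 0.23 without tasseling library 2. A further one (Zm00001d017834) had 0 and 0.91 FPKM at jointing, 0 in both big flare libraries and 4.53 and 11.03 at tasseling (adjusted p = 0.0028).

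MYB46 (Zm00001d023932), which in Arabidopsis switches on secondary wall synthesis, had 6.07 and 32.6 FPKM at jointing, 2.23 and 1.92 at big flare, then 58.7 and 107 at tasseling. Tasseling exceeded every earlier library, and the gene rose by 4.71 ± 1.05 log2 units over big flare (adjusted p = 0.0092, 0.06 without big flare library 2 and 0.056 without tasseling library 2). A secondary wall NAC factor (Zm00001d049678) was low throughout, with 1.36 and 3.27 FPKM at jointing, 0.70 and 0 at big flare, then 8.77 and 5.95 at tasseling. It rose by 2.66 ± 0.64 log2 units (0.013, 0.1 without big flare library 2 and 0.077 without tasseling library 1).

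Cellulose synthases, which spin the cellulose chains of the wall, gave 4 higher members and 1 lower member of 12 tested, with a median of 1.73 log2 units. That is 41.7% called, against 19.9% of all tested genes. With 1 high library left out, 1 to 3 rose. A cellulose synthase A gene (Zm00001d019317) had 142 and 132 FPKM at jointing, 39.4 and 49.0 at big flare, then 376 and 237 at tasseling. The 3 stages did not overlap, with big flare lowest. It rose by 2.74 ± 0.67 log2 units over big flare (adjusted p = 0.014), and the call was lost without big flare library 1 (0.076) or 2 (0.063) or tasseling library 1 (0.087). A second (Zm00001d005478) had 34.4 and 21.8 FPKM at jointing, 9.16 and 13.0 at big flare, then 113 and 53.5 at tasseling, and rose by 2.72 ± 0.55 (0.0065, and 0.055 without tasseling library 1). Cellulose synthase 2 (Zm00001d037636, matched to a Phyllostachys protein) had 138 and 139 FPKM at jointing, 50.4 and 74.5 at big flare, then 273 and 250.4 at tasseling, and rose by 2.07 ± 0.46 (0.009, and 0.068 without big flare library 1). In all 3 genes jointing lay between the other stages.

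Lignin genes were called in both directions. Laccases, the copper enzymes that join lignin units, had 3 higher and 0 lower of 9 tested, and 0 to 4 higher with 1 high library left out. The share of laccases called was 33.3%. In lignin synthesis, 3 of 21 rose and 2 fell, with a median of 0.73. That is 23.8% called, close to the 19.9% of all tested genes, and leaving out 1 high library gave 1 to 3 higher and 0 to 2 lower. A caffeoyl-CoA O-methyltransferase gene (Zm00001d052842), of the enzymes that methylate lignin precursors, had 0 and 2.96 FPKM at jointing, 0 in both big flare libraries and 28.2 and 157 at tasseling. Tasseling was far above every earlier library, though its libraries differed from each other, and the change over big flare was called (adjusted p = 0.00069) in all 18 fits with a library left out. A laccase gene (Zm00001d012477) had 0.69 and 12.9 FPKM at jointing, 0.22 and 1.90 at big flare, then 76.9 and 139 at tasseling. It rose by 5.79 ± 1.33 log2 units (0.011, 0.072 without big flare library 1 and 0.06 without tasseling library 2). Cinnamyl alcohol dehydrogenase 1 (Zm00001d002346), which makes lignin alcohols, had 23.0 and 9.42 FPKM at jointing, 31.0 and 34.9 at big flare, then 5.65 and 7.98 at tasseling. It fell by 2.13 ± 0.63 (0.032), and the call was lost without any 1 of the 4 big flare and tasseling libraries, with adjusted p of 0.076 to 0.14, and with a pseudocount of 0.1 (0.064).

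**Figure D4:**
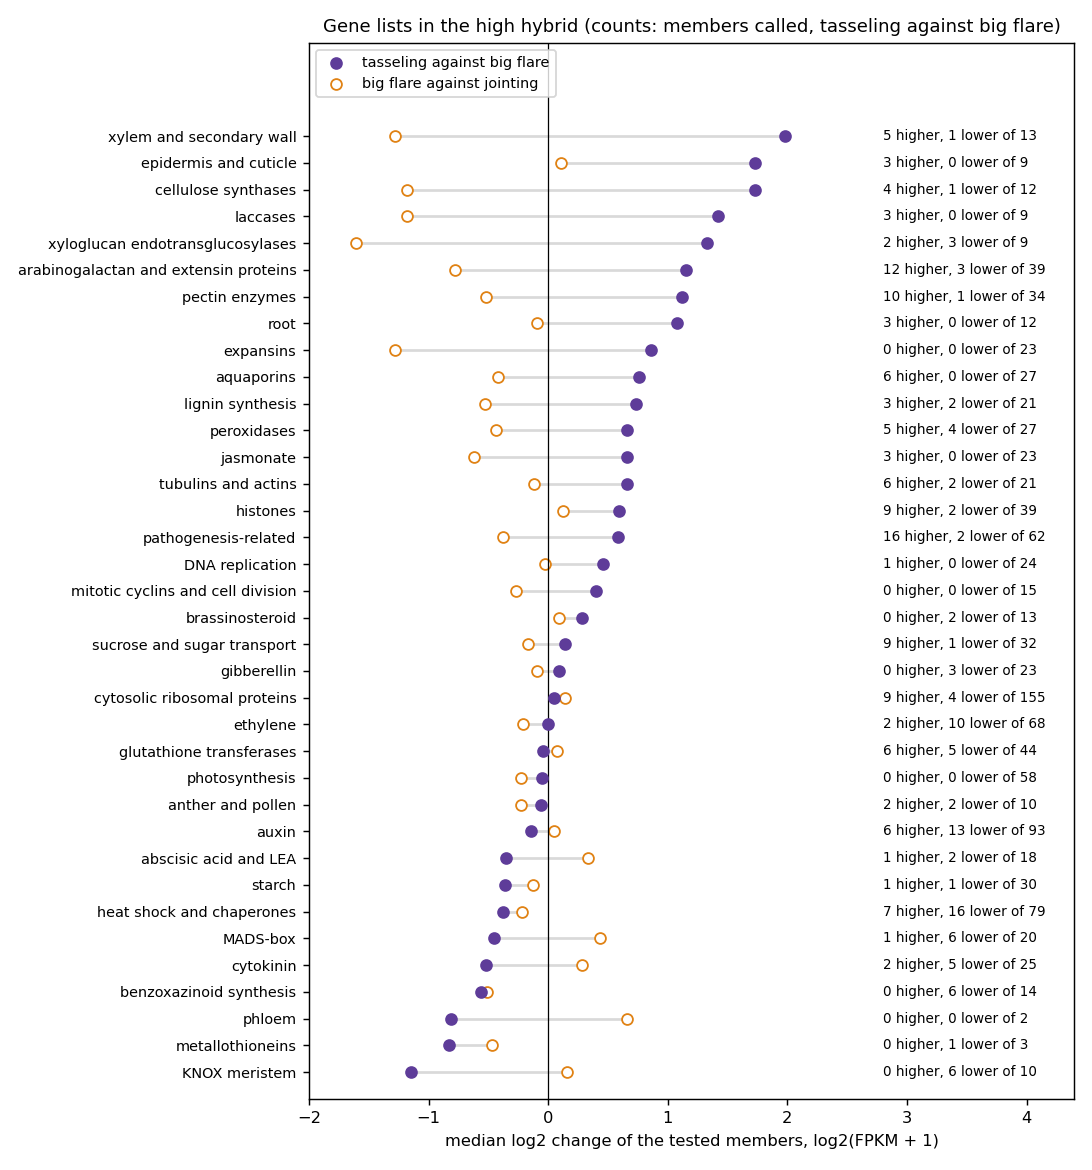
Median change on the log2(FPKM + 1) scale of the tested members of 36 gene lists in the high hybrid, filled for tasseling against big flare and open for big flare against jointing; the text at right counts members called at tasseling against big flare. Xylem and secondary wall genes have the highest filled median (1.98) and KNOX genes the lowest (-1.15). Of all tested genes, 19.9% were called at tasseling against big flare.

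Primary wall and cytoskeleton lists also leaned upward at tasseling against big flare. Arabinogalactan and extensin proteins had 12 higher and 3 lower of 39 tested (38.5% called), with a median of 1.15. Pectin enzymes had 10 higher and 1 lower of 34 (32.4%), with a median of 1.12, against 19.9% called of all tested genes. With 1 high library left out, the higher members numbered 3 to 12 and 1 to 11. Among expansins, which loosen growing walls, 0 of 23 were called, although their median was 0.86. Beta-expansin 4 (Zm00001d017494) had 272 and 446 FPKM at jointing, 11.4 and 40.9 at big flare, then 105 and 408 at tasseling, a change of 3.19 ± 1.76 log2 units at tasseling that was not called (adjusted p = 0.22). Against jointing, the list medians at tasseling were smaller than against big flare. They were 0.51 for arabinogalactan and extensin proteins, 0.52 for pectin enzymes and 0.0 for expansins. For xyloglucan endotransglucosylases the median against jointing was 0.1, and for actins and tubulins 0.51.

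A proline-rich protein gene (Zm00001d047934), of a family of structural wall proteins, had 0.16 and 1.47 FPKM at jointing, 0.36 and 0.29 at big flare, then 163 and 28.3 at tasseling. Both tasseling libraries stood above all others, and it rose by 5.71 ± 0.88 log2 units over big flare (adjusted p = 0.002), a call kept in all 18 fits. Xyloglucan endotransglucosylases, which cut and rejoin wall xyloglucan, moved both ways, with 2 higher and 3 lower of 9 tested (55.6% called). The gene Zm00001d002410 had 4.89 and 1.60 FPKM at jointing, 0 and 0.64 at big flare, then 33.0 and 14.2 at tasseling, and it rose by 4.15 ± 0.67 (0.0024). Its relative Zm00001d014614 had 71.5 and 10.8 FPKM at jointing, 142 and 88.8 at big flare, then 4.80 and 9.67 at tasseling, and it fell by 3.85 ± 0.79 (0.0068). Both calls were kept in all 18 fits.

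Actins and tubulins, the cytoskeleton that guides wall deposition, had 6 higher and 2 lower of 21 tested (1 to 6 higher with 1 high library left out). Their share called was 38.1%, against 19.9% of all tested genes. Actin-2 (Zm00001d013873) had 21.8 and 27.3 FPKM at jointing, 11.6 and 14.9 at big flare, then 154 and 64.0 at tasseling. It rose by 2.83 ± 0.46 log2 units over big flare (0.0025), in all 18 fits.

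More sugar genes rose than fell at tasseling, and 31.2% of the list was called, against 19.9% of all tested genes. In sucrose metabolism and sugar transport, 9 of 32 tested members rose and 1 fell, with a median of 0.14, and 5 to 9 rose with 1 high library left out. Sucrose synthase 2 (Zm00001d047253), which splits sucrose into UDP-glucose and fructose, had 631 and 854 FPKM at jointing, 669 and 249 at big flare, then 4535 and 3421 at tasseling. Both tasseling libraries lay far above every earlier one. The gene rose by 3.27 ± 0.62 log2 units over big flare (adjusted p = 0.0046, and 0.056 without big flare library 2). A vacuolar invertase gene (Zm00001d014947), which cleaves sucrose in the vacuole, had 156 and 308 FPKM at jointing, 5.41 and 17.98 at big flare, then 901 and 252 at tasseling. Its tasseling and jointing libraries overlapped, and big flare was lowest. It rose by 5.44 ± 1.12 (0.007, 0.055 without big flare library 1 and 0.057 without tasseling library 1). Of 30 starch genes, 1 rose and 1 fell (6.67% called).

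Of 27 aquaporins, the water channels of membranes, 6 rose and 0 fell, and 1 to 6 rose with 1 high library left out. The 22.2% called was close to the 19.9% of all tested genes. Aquaporin TIP2-2 (Zm00001d017485, matched to a Sorghum protein), a channel of the vacuole membrane, had 2.73 and 2.95 FPKM at jointing, 2.55 and 4.09 at big flare, then 44.7 and 16.2 at tasseling. It rose by 2.72 ± 0.56 log2 units over big flare (adjusted p = 0.0068, and 0.06 without tasseling library 1).

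Surface and defence genes included large rises. Lipid transfer proteins carry lipids to the cell surface, and the gene VAS (Zm00001d014758) had 8.94 and 17.7 FPKM at jointing, 1.14 and 0.46 at big flare, then 224 and 50.5 at tasseling. The stages did not overlap, and it rose by 5.93 ± 0.86 log2 units over big flare (adjusted p = 0.0016) in all 18 fits. A lipid binding protein gene (Zm00001d018926) had 0.59 and 16.6 FPKM at jointing, 0 and 1.08 at big flare, then 144 and 217 at tasseling. Its rise of 6.94 ± 1.5 log2 units had an adjusted p of 0.0083, and of 0.054 without big flare library 1. Of 9 epidermis and cuticle genes 3 rose and 0 fell, with 0 to 3 higher when 1 high library was left out. That is 33.3% called, against 19.9% of all tested genes. Glossy 8 (Zm00001d017111), a reductase in the elongation of wax fatty acids, had 7.99 and 12.2 FPKM at jointing, 9.85 and 9.76 at big flare, then 47.5 and 32.8 at tasseling. It rose by 1.91 ± 0.44 (0.011), and the call was lost without big flare library 1 (0.054) or 2 (0.064) or tasseling library 1 (0.076).

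Among pathogenesis-related genes, 16 of 62 rose and 2 fell, with a median of 0.58, and 7 to 18 rose with 1 high library left out. Their share called was 29%, against 19.9% of all tested genes. An osmotin-like gene (Zm00001d041553), of the antifungal thaumatin family, had 4.72 and 35.6 FPKM at jointing, 0 and 2.49 at big flare, then 41.7 and 53.0 at tasseling. A thaumatin domain gene (Zm00001d024872) had 0 and 2.68 FPKM at jointing, 0.83 and 0 at big flare, then 20.8 and 21.2 at tasseling. They rose by 4.68 ± 0.91 (adjusted p = 0.0053) and 4.02 ± 0.75 (0.0044) log2 units over big flare, in all 18 fits. Jasmonate genes gave 3 higher and 0 lower of 23, and 1 to 3 higher with 1 high library left out, and the 13% called was below the 19.9% of all tested genes. Allene oxide synthase 1 (Zm00001d013185), which commits fatty acid hydroperoxides to jasmonate, had 15.03 and 22.5 FPKM at jointing, 6.59 and 5.51 at big flare, then 35.9 and 26.0 at tasseling. It rose by 2.17 ± 0.32 (0.0018), again in all 18 fits.

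The called meristem genes of the KNOX class, 60% of its tested members against 19.9% of all tested genes, were lower at tasseling. Of 10 tested members, 6 fell and 0 rose, with a median of -1.15, and 4 fell with median-of-ratios scaling and 2 to 6 with 1 high library left out. Their summed level was 402.6 and 337.2 FPKM at jointing, 436.8 and 459.6 at big flare, then 184.7 and 190.2 at tasseling, so that both tasseling libraries lay below the other 4. A KNOX1 domain gene (Zm00001d033861) had 84.7 and 28.0 FPKM at jointing, 29.2 and 40.1 at big flare, then 0.25 and 0.24 at tasseling. It fell by 4.82 ± 1.02 log2 units (adjusted p = 0.0077, and 0.057 without big flare library 2). Knotted-1-like 11 (Zm00001d046568) had 63.5 and 34.0 FPKM at jointing, 83.1 and 102 at big flare, then 18.6 and 20.6 at tasseling, and fell by 2.18 ± 0.34 (0.0022). The knotted1-like gene Zm00001d033859 had 94.4 and 119 FPKM at jointing, 139 and 135 at big flare, then 57.3 and 58.1 at tasseling, and fell by 1.23 ± 0.23 (0.0042). Both of these calls were kept in all 18 fits, and no tasseling library overlapped with an earlier one. Knotted-1 itself (Zm00001d035439), the founding member that keeps meristem cells undetermined, stayed between 9.93 and 15.03 FPKM in all 6 libraries, and its change at tasseling was -0.20 ± 0.39 (0.78).

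MADS-box genes, which include floral organ and flowering-time regulators, had 6 lower and 1 higher of 20 tested, with 3 to 7 lower when 1 high library was left out. The share called was 35%, against 19.9% of all tested genes. The gene m15 (Zm00001d034045) is not in this list, which was matched by name. The gene Zm00001d025479 had 8.02 and 11.8 FPKM at jointing, 33.5 and 28.9 at big flare, then 0.52 and 2.00 at tasseling. It fell by 3.91 ± 0.49 log2 units (adjusted p = 0.00092). MADS1 (Zm00001d048474) had 16.4 and 10.6 FPKM at jointing, 5.76 and 10.97 at big flare, then 0 and 0.13 at tasseling, and fell by 3.08 ± 0.54 (0.0033). Both calls were kept in all 18 fits. The member that rose (Zm00001d018667) had 0 and 0.28 FPKM at jointing, 9.59 and 4.97 at big flare, then 69.9 and 61.8 at tasseling. Its 3 stages did not overlap. It gained 3.07 ± 0.76 log2 units over big flare (adjusted p = 0.015), a call lost without big flare library 2 (0.11) or tasseling library 1 (0.073) or 2 (0.056) and with a pseudocount of 0.1 (0.14), and its step of 2.81 ± 0.76 from jointing to big flare was not called (0.14).

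The auxin, ethylene, cytokinin, gibberellin and brassinosteroid lists had more lower than higher members, and most of their shares called were near or below the background. Auxin genes had 13 lower and 6 higher of 93, but 14 and 11 with median-of-ratios scaling, and ethylene genes had 10 lower and 2 higher of 68. With 1 high library left out, the lower members numbered 3 to 14 for auxin and 1 to 10 for ethylene. Cytokinin genes had 5 lower and 2 higher of 25, gibberellin genes 3 lower and 0 higher of 23, and brassinosteroid genes 2 lower and 0 higher of 13. With 1 high library left out, 2 to 6 cytokinin, 1 to 2 gibberellin and 0 to 3 brassinosteroid genes fell. The share called was 20.4% for auxin, 17.6% for ethylene, 28% for cytokinin, 13% for gibberellin and 15.4% for brassinosteroid genes, against 19.9% of all tested genes.

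An auxin-repressed 12.5 kDa protein gene (Zm00001d032423), of a family tied to growth arrest and dormancy in other plants, had 40.4 and 54.0 FPKM at jointing, 26.0 and 40.1 at big flare, then 2.55 and 2.81 at tasseling. Tasseling lay below every earlier library, and the gene fell by 3.18 ± 0.39 log2 units (adjusted p = 0.00089). A SAUR gene (Zm00001d032088), of the small auxin-induced RNAs, was at 0.65 and 1.16 FPKM at jointing, listed at 0 in both big flare libraries and at 15.4 and 15.8 FPKM at tasseling (0.0024). A cytokinin hydroxylase-like gene (Zm00001d005729), of the enzymes that make trans-zeatin forms, had 1.88 and 1.09 FPKM at jointing, 4.78 and 9.84 at big flare, then 0.11 and 0.42 at tasseling. It fell by 2.66 ± 0.45 (0.0028). These 3 calls were kept in all 18 fits. The DELLA protein gene GAI-like (Zm00001d009646), a repressor in gibberellin signalling, had 0.28 and 0 FPKM at jointing, 3.11 and 4.24 at big flare, then 0.28 and 0.13 at tasseling, and fell by 1.95 ± 0.38 (0.0054, and 0.055 with a pseudocount of 0.1).

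Stress hormone and redox genes moved in both directions. An abscisic stress protein homolog (Zm00001d023529), of a family induced by abscisic acid and drying, had 809 and 261 FPKM at jointing, 960.1 and 1404 at big flare, then 138 and 171 at tasseling. Tasseling lay below every earlier library, and it fell by 2.91 ± 0.53 log2 units (adjusted p = 0.0039). An ERF012-like factor (Zm00001d028524) had 1.58 and 1.72 FPKM at jointing, 0.74 and 0 at big flare, then 14.7 and 9.47 at tasseling, and it rose by 3.28 ± 0.37 (0.00069). A glutathione S-transferase gene (Zm00001d036951), of the enzymes that couple glutathione to reactive compounds, had 5.92 and 6.59 FPKM at jointing, 49.0 and 78.5 at big flare, then 4.29 and 6.12 at tasseling. Big flare stood above both other stages, and the gene fell by 3.36 ± 0.59 at tasseling (0.0034), while its first step was not called (3.12 ± 0.59, 0.061). Peroxidase 45 (Zm00001d014606), of the secreted peroxidases of the wall, had 55.8 and 6.09 FPKM at jointing, 116 and 121 at big flare, then 1.10 and 1.99 at tasseling, and fell by 5.57 ± 1.03 (0.0042). All 4 of the calls at tasseling were kept in the 18 fits. Among 27 peroxidases 5 rose and 4 fell, and among 44 glutathione transferases 6 rose and 5 fell. The shares called were 33.3% and 25%, against 19.9% of all tested genes.

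The called genes of benzoxazinoid synthesis, 42.9% of those tested against 19.9% of all tested genes, were lower at tasseling than at big flare. Of 14 tested members 6 fell and 0 rose, with a median of -0.56, and 3 to 6 fell with 1 high library left out. Benzoxazinless1 (Zm00001d048709), which makes the indole that starts the pathway, had 1007 and 477 FPKM at jointing, 245 and 444 at big flare, then 4.70 and 2.78 at tasseling. The 3 stages did not overlap, and both tasseling libraries lay far below the other 4. It fell by 6.16 ± 0.59 log2 units over big flare (adjusted p = 0.0004) and fell by 7.22 ± 0.59 over jointing (0.00063). Benzoxazinone synthesis2 (Zm00001d048710), the cytochrome P450 of the next step, had 288 and 230.5 FPKM at jointing, 62.8 and 168 at big flare, then 16.5 and 7.34 at tasseling. Its stages did not overlap. It fell by 3.10 ± 0.42 over big flare (0.0012) and fell by 4.42 ± 0.42 over jointing (0.0018). All 4 calls were kept in all 18 fits.

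Heat shock proteins and chaperones had 16 lower and 7 higher of 79 members at tasseling, and 13 and 8 with median-of-ratios scaling. The share called was 29.1%, against 19.9% of all tested genes. Leaving out 1 high library gave 2 to 18 lower members. BAG6 (Zm00001d016070), a co-chaperone of heat shock proteins in Arabidopsis, had 2213 and 326 FPKM at jointing, 761 and 1015 at big flare, then 15.2 and 21.1 at tasseling. It fell by 5.54 ± 1.05 log2 units over big flare (adjusted p = 0.0047), in all 18 fits. A class I heat shock gene of 16.9 kDa (Zm00001d039936), a small chaperone that holds unfolding proteins, had 970.2 and 189 FPKM at jointing, 30.3 and 21.9 at big flare, then 1.89 and 2.55 at tasseling. Its 3 stages did not overlap. It fell by 7.07 ± 0.80 over jointing (0.0025) in all 18 fits. It fell by 3.06 ± 0.80 over big flare (0.019), a call lost without big flare library 1 (0.097) or 2 (0.072) or tasseling library 1 (0.09) or 2 (0.061), and its first change of -4.01 ± 0.80 was not called (0.072). Its neighbour in name, Zm00001d039935, had the same order of stages, and how the authors' counting divides reads between these near-identical copies is not given in the sources used here.

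Other genes of this family went up. A small heat shock-like gene (Zm00001d032893) had 0.46 and 8.82 FPKM at jointing, 0.53 and 3.40 at big flare, then 70.3 and 38.1 at tasseling. It rose by 4.35 ± 0.84 log2 units over big flare (adjusted p = 0.0052), in all 18 fits.

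Few genes of cell division, DNA replication or photosynthesis were called, beside 28.2% of histones and 19.9% of all tested genes. Mitotic cyclins and cell division genes had 0 of 15 called at tasseling against big flare, and DNA replication had 1 of 24 (4 with median-of-ratios scaling). The 1 was the sliding clamp PCNA (Zm00001d018415), at 6.86 and 4.75 FPKM at jointing, 2.21 and 1.89 at big flare, then 18.9 and 7.53 at tasseling. Its rise of 2.10 ± 0.61 log2 units (adjusted p = 0.031) was lost without big flare library 1 (0.099) or 2 (0.13) or tasseling library 1 (0.21). Histones had 9 higher and 2 lower of 39, and 0 to 10 higher with 1 high library left out. Their copies are near-identical, so single values are uncertain. Cytosolic ribosomal proteins had 9 higher and 4 lower of 155 (8.39% called), and 21 and 3 with median-of-ratios scaling. Their summed level differed between the tasseling libraries, at 27200 and 10480 FPKM, against 18280 and 22030 at big flare, and with 1 high library left out 0 to 36 rose and 0 to 14 fell. Of 58 photosynthesis genes 0 were called.

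Among abundant transcripts, the glycine-rich RNA-binding protein 2 gene (Zm00001d031168) had 20199 and 15202 FPKM at jointing, 20978 and 19435 at big flare, then 12390 and 10346 at tasseling. This was a change of -0.83 ± 1.20 log2 units over big flare (adjusted p = 0.68), and it was not called. Phenylalanine/tyrosine ammonia-lyase (Zm00001d017274), the first enzyme of the lignin route, had 3334 and 2315 FPKM at jointing, 6998 and 3391 at big flare, then 933 and 3029 at tasseling (-1.53 ± 0.74, 0.16). Its tasseling libraries lay below those of big flare and differed from each other. A metallothionein gene (Zm00001d011063), a metal-binding protein, had 4856 and 1217 FPKM at jointing, 3817 and 7060 at big flare, then 457 and 704 at tasseling. It fell by 3.19 ± 1.02 (0.045), and 12 of the 18 fits with a library left out lost the call, with the highest adjusted p of 0.21 without big flare library 2.

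Of 33 named genes called between tasseling and jointing, 28 were not called without jointing library 1, 23 without tasseling library 1 and 17 without tasseling library 2. Those whose call held whichever library was left out included benzoxazinless1, benzoxazinone synthesis2, both 16.9 kDa heat shock genes and the auxin-repressed gene Zm00001d032423, which fell by 3.70 ± 0.39 log2 units (adjusted p = 0.0022). The MADS-box gene Zm00001d018667 rose by 5.88 ± 0.76 (0.0051), and the caffeoyl-CoA O-methyltransferase gene Zm00001d052842 by 5.09 ± 0.69 (0.0052), each with an adjusted p of 0.078 without jointing library 1. In the benzoxazinoid list 5 of 14 were lower at tasseling than at jointing and 0 higher (35.7% called). Among heat shock proteins and chaperones 8 of 79 were lower and 2 higher (12.7%). Of all tested genes, 2.03% were lower and 1.76% higher in this comparison, together 3.79%. With 1 high library left out, 2 to 4 benzoxazinoid and 2 to 12 heat shock genes were lower.

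Where jointing stood between the other stages depended on the library. For the 2510 genes higher at tasseling than at big flare, jointing library 1 was nearer to big flare in 1893 (75.4%) and jointing library 2 in 1212 (48.3%). For the 2810 genes that were lower, it was 2031 (72.3%) and 1267 (45.1%). These positions are a description of the genes chosen for their later step.

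Markers of other tissues were checked by name. Phloem was marked by 2 lectin genes, of which the higher (Zm00001d018452) had 50.7 and 38.6 FPKM at jointing, 39.5 and 44.0 at big flare, then 43.5 and 30.9 at tasseling. Together the 2 summed to 53.01 and 38.58 FPKM at jointing, 45.53 and 46.22 at big flare, then 44.05 and 31.89 at tasseling. Both were lower at tasseling than at big flare, with a median change of -0.81 log2 units, and 0 were called. Sucrose synthase, also a planned phloem marker, is described with the sugar genes, where sucrose synthase 2 rose. In the anther and pollen list, 15 genes summed to 126 and 146.4 FPKM at jointing, 167 and 193.3 at big flare, then 165 and 128.1 at tasseling. In this list, 2 of 10 tested members were higher and 2 lower at tasseling than at big flare (40% called, against 19.9% of all tested genes). Its defining grass pollen allergens were at or near 0 in every high library, with a highest value of 1.69 FPKM in Phl p 2 (Zm00001d044675) and 1.23 in Phl p 11 (Zm00001d037835). The root list of 15 genes summed to 375.8 and 210.8 FPKM at jointing, 171.1 and 225.0 at big flare, then 441.7 and 250.7 at tasseling, and root cap proteins 1 and 2 (Zm00001d041984 and Zm00001d052527) did not exceed 0.30 FPKM. Photosynthesis genes, a mark of leaf sheath or green rind, summed to 13710 and 11010 FPKM at jointing, 12350 and 5782 at big flare, then 8897 and 11080 at tasseling. Against big flare, the tasseling sums were both higher for the root list and both lower for the pollen list, while those for photosynthesis overlapped. In the root list 3 of 12 tested members rose and 0 fell, and the 25% called was near the 19.9% of all tested genes. The part of other tissues in the stage changes was not tested beyond these levels.

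For most called genes, the second step had the same sign in all 3 hybrids. Across the 26792 tested genes, the change from big flare to tasseling in the high hybrid correlated at 0.807 with that in the middle hybrid and at 0.708 with that in the low hybrid, whose libraries are separate. Of the 5320 genes called in the high hybrid, 4886 (91.8%) had the same sign in both other hybrids, against 62.2% of all tested genes. The higher genes had median changes of 1.78 log2 units in the high, 1.39 in the middle and 1.15 in the low hybrid, and the lower genes -1.55, -1.07 and -0.78. Choosing the genes on the high hybrid favours a larger median there. The same test called 3873 genes (14.5%) in the middle and 2802 (10.5%) in the low hybrid. For the first step the correlations were 0.526 with the middle and 0.59 with the low hybrid, and 23 of 35 called genes (65.7%) had the same sign in both, against 51.1% of all tested.

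**Figure D5:**
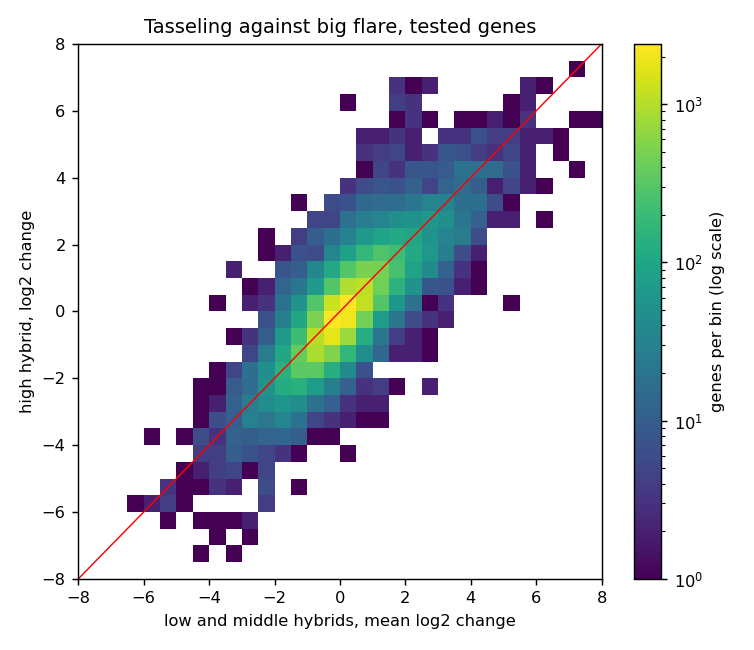
Change from big flare to tasseling on the log2(FPKM + 1) scale in the high hybrid (vertical) against the mean of the low and middle hybrids (horizontal) for 26792 tested genes; colour is the number of genes per bin on a log scale, and the line marks equal change. Most genes lie along the line, and the correlation across genes is 0.8.

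Tests of the difference itself called few genes. The first step in the high hybrid differed from the mean of the others in 3 genes (0.0112%), 2 with a positive difference (0.00746%) and 1 with a negative one (0.00373%). The second step differed in 9 genes (0.0336%), 5 positive (0.0187%) and 4 negative (0.0149%), and the net change in 1, negative (0.00373%). Unadjusted p was under 0.05 in 1019 genes (3.8%), 1827 (6.82%) and 1513 (5.65%) for these differences. The caffeoyl-CoA O-methyltransferase gene (Zm00001d052842) was one of the 9. It reached 28.2 and 157 FPKM in the high hybrid at tasseling, against 0.94 and 1.45 in the middle and 0 in both libraries of the low hybrid. The difference of its second step was called (adjusted p = 0.045), and it was lost without any library other than the high jointing pair and high tasseling library 1, with the highest adjusted p of 0.22 without high big flare library 2. It was also lost with a pseudocount of 0.1 (0.28), a filter of 5 FPKM (0.18), median-of-ratios scaling (0.071), quantile normalization (0.06) and the replicate block (0.061). Histone H2B.1 (Zm00001d051591) stayed at 0 in every high library except jointing library 1 (0.55 FPKM), against 245 and 82.6 FPKM in the middle and 78.6 and 140 in the low hybrid at tasseling. Its second step differed with an adjusted p of 0.017, which came from the other hybrids' levels, since the high hybrid had 0 at both stages. The call was lost without big flare library 1 of the low (0.064) or middle (0.057) hybrid, any of the 4 big flare and tasseling libraries of the high hybrid (0.069 to 0.12), and with a pseudocount of 0.1 (0.19). A HARBI1-like nuclease gene (BGI_novel_G000490), of a transposon-derived family, had 0 throughout the high hybrid, against 28.7 and 18.6 FPKM in the middle hybrid at big flare, and its difference (0.045) was lost in 17 of the 18 fits with a library left out. A triosephosphate isomerase-like gene (BGI_novel_G001250), named after its values were seen, had 3.27 and 1.41 FPKM at jointing, 0 in both libraries at big flare, then 4.51 and 3.83 at tasseling in the high hybrid, against 0 in all 12 libraries of the other hybrids. The difference of its second step was called (adjusted p = 0.045), and 16 of the 18 fits with a library left out lost it, with the highest adjusted p of 0.22 without high big flare library 2. It was also lost with a pseudocount of 0.1 (0.12) and the replicate block (0.091).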

How the data were processed

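Poly-A RNA of maize stems was sequenced by the authors as paired reads of 100 bases after 12 PCR cycles, and 18 libraries were analysed. The deposited values are FPKM per gene, and the submitters' processing notes list TopHat2, Cufflinks 2.2.1, Cuffdiff, DESeq 1.28.0 and the build B73 RefGen_v4 without their roles. No counts were used and absolute depth is unknown, so no counting intervals are given, and relative depth was read from 3038 low genes. Names come from the authors' protein matches (34351 of 34474 genes, 14432 informative). Values were taken as log2(FPKM + 1), which understates changes of low genes. Genes with at least 1 FPKM in 2 of 18 libraries were fitted with limma 3.58.1 in R 4.3.3 as 9 group means with a variance trend, 9 residual and 3.5 prior degrees of freedom, and two-sided p-values were adjusted by Benjamini-Hochberg over 26792 genes. The spread is thus shared with the low and middle hybrids. Tables and figures were made with Python 3.11.15, numpy 2.4.6, pandas 2.3.3 and matplotlib 3.10.9.

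Named genes are those with an informative name, 5 FPKM or more on the higher side and no overlap, by size of change in each comparison, the most changed called members of each list, genes called in both steps, the most abundant genes, markers and genes called for a difference between hybrids; the text describes a part of them, chosen after their values were seen. The members, lists and tests were chosen with earlier results of these data known. The fit was tested on simulated data for big flare against jointing over 26792 genes. It recovered 4.4% of genes changed by 1 log2 unit, 61.2% at 2, 86% at 3 and 96.8% at 4, with 6.2% of calls false. The changed genes were drawn only from those with a higher mean level. The noise was normal and independent, and no other gene had a stage effect. These shares therefore check the fit and are not the detection rate or false share of the real step. No 2 of the 18 libraries held identical values. Alternatives were another pseudocount, other filters, median-of-ratios and quantile scaling, a replicate block, the 6 high libraries alone and each library left out.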

Additional observations from a re-analysis of the deposited data

Results flagged for a closer look

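Tests of the stage changes in the high hybrid against the mean change of the low and middle hybrids, in limma, called 3 genes for the first step, 9 for the second and 1 for the net change. Among the 4 informatively named ones, the second step of the caffeoyl-CoA O-methyltransferase gene Zm00001d052842 differed by 5.71 ± 0.84 log2 units (adjusted p = 0.045), a fitted value whose size depends on the pseudocount, since the gene is listed at 0 in both high big flare libraries. The HARBI1-like gene BGI_novel_G000490 differed by 2.3 ± 0.33 (adjusted p = 0.045), and histone H2B.1 (Zm00001d051591) by -5.23 ± 0.63 (adjusted p = 0.017). Both are at 0 in the high hybrid at big flare and tasseling, so these differences are levels of the other hybrids. The triosephosphate isomerase-like gene BGI_novel_G001250 is listed at 0 in all 12 libraries of the other hybrids and in both high big flare libraries, so that only its adjusted p of 0.045 is given.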

How the results depend on the processing

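Counts are given as higher and lower genes. Between big flare and jointing they were 52 and 29 with no filter, 12 and 7 with a filter of 5 FPKM, 48 and 33 after quantile normalization, 41 and 28 after median-of-ratios scaling, and 0 and 0 in limma on the 6 high libraries alone, where 1913 and 1550 had an unadjusted p under 0.05. Leaving out 1 of the 18 libraries gave 7 to 37 and 2 to 55. For tasseling against big flare the 6 libraries alone gave 621 and 706, and leaving out a library gave 978 to 2661 and 819 to 2908. For tasseling against jointing a pseudocount of 0.1 gave 245 higher genes, median-of-ratios scaling 811, and the 6 libraries alone 0 and 0 (unadjusted 2166 and 2441), while leaving out a library gave 6 to 566 and 9 to 795. Genes called for a difference between hybrids numbered 23 with no filter and 0 with a filter of 5 FPKM (unadjusted 644) in the first step. In the second step the replicate block gave 3, a pseudocount of 0.1 gave 2, a filter of 5 FPKM gave 1 and no filter 29, and in the net change 0 with a pseudocount of 0.1 (unadjusted 1416) and 12 with no filter. Leaving out a library gave 0 to 7, 0 to 7 and 0 to 4. With library numbers as a replicate block the counts were 17 and 12, 2362 and 2652, and 322 and 420. The labels do not tell whether those numbers pair the samples. Of 36 pairs of groups, 8 had a correlation of replicate differences over 0.1 (range -0.43 to 0.293). Each group gives a single difference, so these values cannot decide it. Of 167 results for named genes, none changed sign in any setting, which is no test of robustness. The replicate block, the 6 high libraries alone and leaving out a library of another group do not alter the stage changes. Many named genes were also chosen for libraries that do not overlap. Under median-of-ratios scaling 162 kept their side of the threshold, 161 under quantile normalization and 126 with a pseudocount of 0.1. In the 6 high libraries alone 30 kept it and 134 did not. The cause of these shifts was not tested. Absolute depth is unknown, and the shallow big flare libraries limit what can be said of genes listed at 0 there.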
